A study of Mus musculus with 22 samples.

Results

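A set of 5 transcripts read as markers of neutrophil maturity and of suppressive neutrophil states, Olr1, Siglecf, Trem1, Camp and Chil3, were followed across 5 treatment groups in tumour G-MDSCs. These granulocytic myeloid-derived suppressor cells resemble neutrophils and restrain T cells. They were chosen by name, and these 5 rows of the 655 endogenous genes of a mouse myeloid panel are described here, all 5 of them measured. The cells came from mammary tumours of female FVB-Neu-N mice, which carry the neu oncogene, grown from the NT2.5 line, which was derived from such a mouse's own tumour and implanted at 50000 cells in the fat pad of mice 7 to 8 weeks old. Treatment began 3 days later and ran for 3 weeks. Magnetic selection for Ly6G, with the column passed repeatedly, was used to isolate the cells, and total RNA was counted on the NanoString nCounter, which reads a fluorescent barcode on each transcript without amplification.

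The groups were vehicle (methylcellulose at 0.5% with isotype antibodies, 6 samples), entinostat alone (4 samples), entinostat plus anti-PD-1 (4 samples), entinostat plus anti-CTLA-4 (4 samples) and entinostat plus both antibodies, the triple combination (4 samples). Entinostat, which inhibits histone deacetylases of class I, was dosed by mouth each day at 5 mg/kg, and each antibody, a blocker of a T cell checkpoint receptor, at 100 µg per mouse 2 times a week. No group received an antibody without entinostat, and the protocol leaves unsaid whether these mice also received anti-HER2. The labels do not tie the samples to separate animals, so a p-value reflects only the spread among samples, which may be technical. The stated question was which transcript changes accompany impaired function of the treated G-MDSCs.

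Olr1 encodes LOX-1, a scavenger receptor for oxidised lipoprotein used to mark suppressive neutrophils in human blood. Siglecf encodes a sialic acid binding receptor that is best known on eosinophils and also marks a tumour-promoting neutrophil state. Trem1 is a receptor on neutrophils and monocytes that signals through the adaptor Tyrobp and amplifies inflammatory cytokine output. Camp is the cathelicidin precursor, a protein of the specific granules made during neutrophil maturation in marrow, and Chil3 (Ym1) is a chitinase-like protein of immature neutrophils and of alternatively activated macrophages.

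Siglecf and Trem1, the pair of these genes whose levels ran most closely together, have the following RefSeq sequences upstream of their starts (GRCm38.p6, 5′ to 3′, plus strand), at chr7:43351091-43351340 and chr17:48232489-48232712. They are shown so that the letters searched for can be seen, and capitals mark matches to the C/EBP letters TTNNGNAA or the PU.1 (ETS) letters GAGGAA on either strand.
Siglecf: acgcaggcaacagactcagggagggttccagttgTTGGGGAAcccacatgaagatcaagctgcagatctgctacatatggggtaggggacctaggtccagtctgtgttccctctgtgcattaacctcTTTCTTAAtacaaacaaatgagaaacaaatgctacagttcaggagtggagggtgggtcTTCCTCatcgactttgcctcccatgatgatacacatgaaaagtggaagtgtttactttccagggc
Trem1: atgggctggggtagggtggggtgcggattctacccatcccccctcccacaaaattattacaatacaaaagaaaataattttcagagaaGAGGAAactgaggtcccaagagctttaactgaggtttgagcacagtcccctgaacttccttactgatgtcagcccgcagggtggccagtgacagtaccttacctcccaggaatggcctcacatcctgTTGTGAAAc
Over the 250 bases before the start that the RefSeq table gives for each of the 5 genes, matches to the C/EBP letters numbered 2 for Siglecf, 1 for Trem1, 3 for Chil3 and 0 for Olr1 and Camp, while 36.85% of 32851 promoters of this length held one. The PU.1 (ETS) letters matched 1 time each in Olr1, Siglecf and Trem1, and 23.25% of promoters held a match. The AP-1 letters TGANTCA matched 1 time, in Olr1, and 6.75% of promoters held a match. The GATA letters AGATAA matched 1 time each in Olr1 and Chil3, against 9.99% of promoters, and the letters of the TATA box TATAAA matched in none of the 5, against 12.4% of promoters. None of these motifs overlapped another in the printed sequences. For Olr1, 65 of these bases lie outside the annotated gene, and for Trem1 224, so most of the Olr1 window is sequence of the gene itself. Those 65 are the bases farthest from the start. The Olr1 matches to PU.1 (ETS), AP-1 and GATA letters begin at -76, -60 and -44 from the start, so all lie inside the annotated gene. A match describes letters and not a bound site.

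Total barcodes per sample ran from 23296 (triple combination sample 2) to 443871 (sample 1 of entinostat plus anti-CTLA-4), and the median was 179363.5, and 1 barcode was worth 0.400 to 9.78 normalized counts. Of the marker lists for these isolates, S100a8, S100a9, Csf3r and Cxcr2, genes that neutrophils express strongly, were above the background of their own sample in 22 of 22 samples, while Ly6g, the antigen used in the selection, was above it in 1 of 22 (median 6.40 normalized counts). Mmp8, a granule collagenase, was above it in 6 of 22. The medians of S100a8, S100a9, Csf3r and Cxcr2 were 5652.5, 10419, 567 and 374 normalized counts. Some markers of other cell types were also above background in 22 of 22 samples. Among them were Cdh1 (epithelial, median 904), Csf1r and C1qa (monocyte and macrophage, 239 and 193) and Pdgfra (fibroblast, 245). The lymphocyte marker Ms4a1 was above it in 0 of 22. Eosinophil genes were low: Prg3 was above background in 0 of 22 samples, Il5ra in 1, Epx and Prg2 in 6 each and Ccr3 in 16. Their summed level ran from 17.4 to 95.8 normalized counts outside the triple combination, where sample 2 reached 283.5. In that sample, the one with fewest barcodes, the mean negative control was worth 28.1 normalized counts and the background limit of a single gene was 79.8. The part of background in that sum was not tested. Samples lay on 2 runs, told apart by identifiers in the column names and called cartridges here. Cartridge 1 held all samples of the group given entinostat alone and of the group with anti-PD-1 added, and cartridge 2 all of the group with anti-CTLA-4 added. Vehicle lay on both, 3 samples each, and the triple combination had 3 samples on cartridge 2 and sample a on cartridge 1. By lane order, triple combination sample a lay among vehicle samples and vehicle sample 3 among triple combination samples, and leaving out both changed the count of genes called in 1 pairwise comparison and in the test across all groups, given with the triple combination. In 2 cases a column title was repeated, and those columns, known by group only, are called samples a and b.

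**Figure D1:**
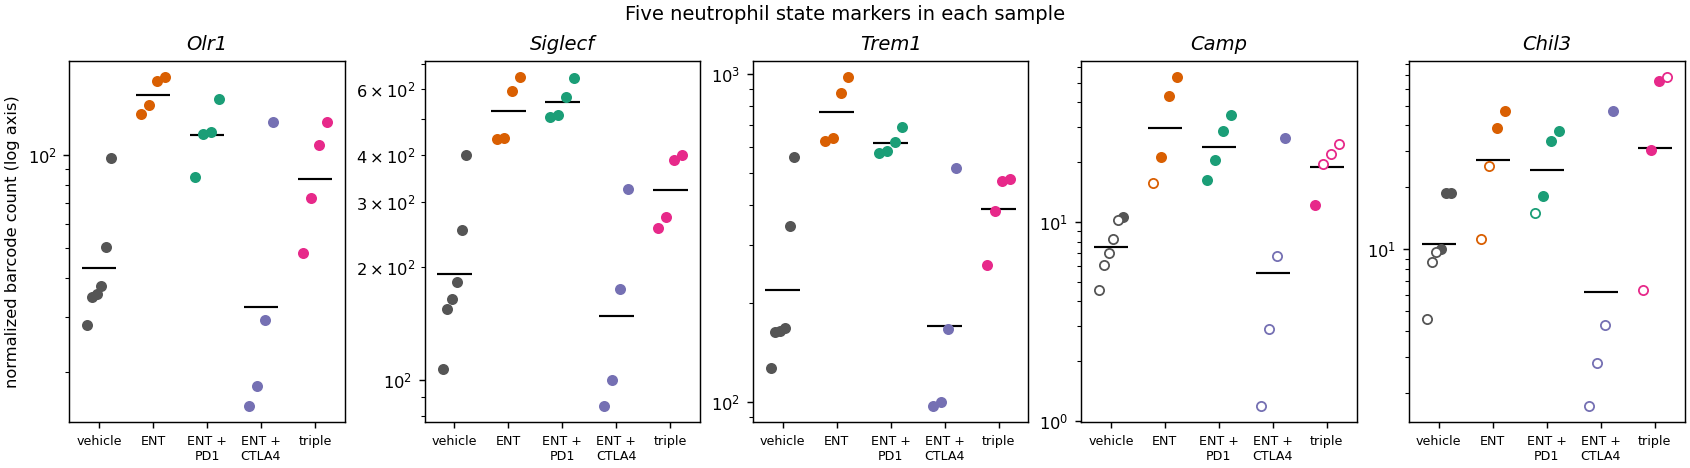
Normalized barcode count (log axis) of the 5 genes in each of the 22 samples, by treatment group (ENT, entinostat). Bars mark the mean on the log2 scale, filled points exceed the background limit of their own sample and open points do not. Olr1, Siglecf and Trem1 were filled in 22 of 22 samples, Camp in 10 and Chil3 in 11, and 1 sample of entinostat plus anti-CTLA-4 lies well above the other three in every panel.

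The 3 receptor genes were detected in every sample and were high after entinostat alone and after entinostat plus anti-PD-1. In vehicle samples Olr1 ran from 28.3 to 97.6 normalized counts with a median of 36.6. The entinostat samples 1 to 4 held 134.66, 171.74, 176.91 and 143.9. After entinostat plus anti-PD-1, samples 1 to 4 held 118.25, 116.78, 84.4 and 151.33. All 4 entinostat samples lay above all vehicle samples, and 3 of 4 did so with anti-PD-1 added. In entinostat plus anti-CTLA-4, samples 1, 3 and b held 15.59, 29.47 and 17.98, while sample a held 127.03. The triple combination samples 2, 4, a and b held 127.1, 107.47, 48.12 and 72.71. So with anti-CTLA-4 added to entinostat, Olr1 was low in 3 of 4 samples, and in the triple combination it was intermediate.

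Siglecf ran from 106.59 to 400.81 normalized counts in vehicle, with a median of 173.6. Its values were 442.96, 594.11, 645.52 and 445.19 in entinostat samples 1 to 4, and 573.27, 510.92, 506.37 and 644.24 in samples 1 to 4 with anti-PD-1 added. Neither of these groups overlapped vehicle. With anti-CTLA-4 added, samples 1, 3 and b held 99.93, 175 and 85.24, and sample a held 323.49. The triple combination samples 2, 4, a and b held 254.19, 388.55, 272.3 and 399.04, all inside the vehicle range.

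Trem1 ran from 126.38 to 557.14 normalized counts in vehicle with a median of 166.2. Entinostat samples 1 to 4 held 627.23, 877.24, 976.75 and 638.56. Samples 1 to 4 of entinostat plus anti-PD-1 held 580.75, 621.86, 573.51 and 687.48. Both groups lay above every vehicle sample. With anti-CTLA-4 added, samples 1, 3 and b held 99.93, 166.4 and 97.41, and sample a held 515.52. Samples 2, 4, a and b of the triple combination held 381.29, 479.49, 262.26 and 473.44, all inside the vehicle range.

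Camp and Chil3, the granule gene and the chitinase-like gene, lay near the assay's background. Camp held 2 to 23 barcodes per sample (median 12) and exceeded the mean plus 2 SD of its own sample's negative controls in 10 of 22 samples. Chil3 held 3 to 32 barcodes (median 11.5) and exceeded that limit in 11 of 22. Camp ran from 4.57 to 10.63 normalized counts in vehicle, with a median of 7.61. Entinostat samples 1 to 4 held 21.26, 53.38, 43.29 and 15.74, and samples 1 to 4 with anti-PD-1 added held 34.43, 20.44, 16.3 and 28.83. With anti-CTLA-4 added, samples 1, 3 and b held 1.2, 6.75 and 2.9, and sample a held 26.59. Triple combination samples 2, 4, a and b held 19.55, 24.8, 12.16 and 21.98. In the groups given entinostat alone, with anti-PD-1 or with both antibodies, every sample lay above all vehicle samples for Camp. The normalized background differed too: the mean negative control was worth 4.66 to 7.04 normalized counts in vehicle, 7.31 to 16.5 after entinostat, 8.63 to 10.4 with anti-PD-1 added and 3.30 to 28.1 in the triple combination, and its part in the Camp levels was not tested. With each sample's mean negative control subtracted, Camp was higher after entinostat than in vehicle by a log2 fold change of 2.14 (adjusted p of 0.0324).

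Chil3 overlapped in most pairs of groups. It ran from 4.57 to 18.88 normalized counts in vehicle, with a median of 9.915, while entinostat samples 1 to 4 held 38.98, 25.53, 47.05 and 11.24. Samples 1 to 4 of entinostat plus anti-PD-1 held 14.97, 33.57, 18.22 and 37.47. With anti-CTLA-4 added, samples 1, 3 and b held 2.8, 4.3 and 1.74, and sample a held 47.27. Triple combination samples 2, 4, a and b held 68.44, 66.14, 6.34 and 30.44, with an SD of 29.9 against 5.81 in vehicle. Triple combination sample 2 had 7 barcodes of Chil3, each worth 9.78 normalized counts.

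**Figure D2:**
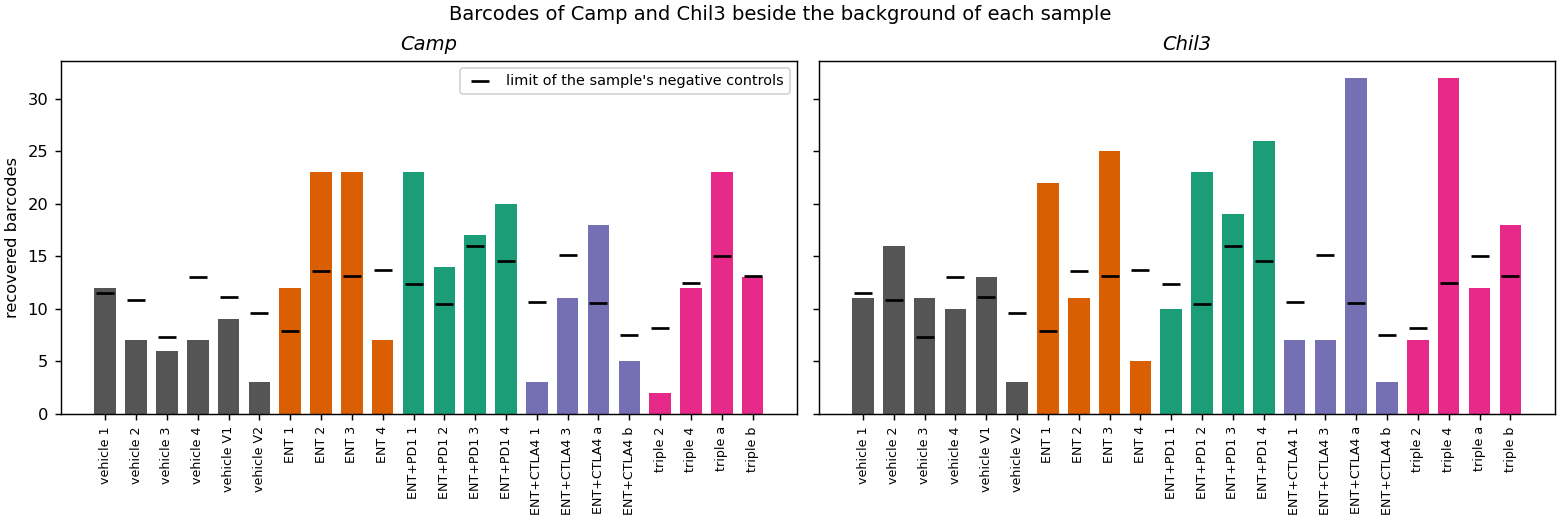
Recovered barcodes of Camp and Chil3 (bars) in each of the 22 samples, with the mean plus 2 SD of that sample's negative controls (black dash). Camp exceeded the dash in 10 samples and Chil3 in 11, and no bar was above 32 barcodes.

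Entinostat alone was tested against vehicle with a linear model of log2(normalized count + 1), the scale of all fold changes here, which understates the change of low genes. The 3 receptor genes Olr1, Siglecf and Trem1, above background in every sample, rose (Benjamini-Hochberg adjusted p under 0.05). With Camp, 4 of 5 were called higher, but Camp entered the test only through the entinostat group, where it is high, so its call adds no support. Of all genes, 40.0% of the 420 tested genes were called in either direction and 36.2% were called higher and 3.81% lower. Olr1 rose by a log2 fold change of 1.82 ± 0.45 (SE), from a mean of 47.4 ± 25.6 (SD, n = 6) to 157 ± 20.7 (SD, n = 4) normalized counts, with an adjusted p of 0.0085. Siglecf rose by 1.44 ± 0.34 (SE), from 210 ± 105 (SD, n = 6) to 532 ± 104 (SD, n = 4), adjusted p of 0.0080. Trem1 rose by 1.80 ± 0.42 (SE), from 254 ± 167 (SD, n = 6) to 780 ± 175 (SD, n = 4), adjusted p of 0.0080. For Camp the difference was 1.85 ± 0.50 (SE), from 7.80 ± 2.39 (SD, n = 6) to 33.4 ± 17.9 (SD, n = 4), adjusted p of 0.0110, and its mean passed the background limit of 29.3 normalized counts in the entinostat group only. Chil3, tested only because of its level in the triple combination, differed by 1.27 with a 95% interval of -0.23 to 2.77 (adjusted p of 0.159). In these bulk preparations, fewer cells of a type and less RNA per cell cannot be told apart. Over all tested genes the median log2 fold change was 0.50 in this comparison, and with each sample centred on its median Olr1, Siglecf, Trem1 and Camp stood at 1.28, 0.90, 1.26 and 1.31, each called. With quantile normalization Camp stood at 0.65 and was no longer called (adjusted p of 0.124), and without vehicle samples V1 and V2 it was also not called (adjusted p of 0.0515). Within cartridge 1 the log2 fold changes of Olr1, Siglecf, Trem1 and Camp were 1.73, 1.27, 1.63 and 1.75, each called, and with cartridge as a block 1.93, 1.38, 1.81 and 1.92.

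Other cell markers differed in the same comparison. Of the pan-leukocyte genes, 6 of 6 tested rose with entinostat, Ptprc by 1.52 (adjusted p of 0.0080) and Selplg by 1.78 (adjusted p of 0.0077), and so did 5 of 5 neutrophil markers tested. The summed level of the 7 neutrophil markers on the panel ran from 5419 to 23416 normalized counts in vehicle and from 19656 to 38611 after entinostat, and from 3245 to 20780 with anti-CTLA-4 added. Cdh1, which encodes the epithelial cadherin and was the 1 epithelial marker on the panel, fell by 0.41 on the log2 scale (adjusted p of 0.042), and of 7 monocyte and macrophage markers limma called 0, with 0 at an unadjusted p under 0.05. Of 5 endothelial markers, 3 rose, Selp, Sele and Ptprb. Of 4 fibroblast markers, Col3a1 rose and Pdgfra fell. Their part in the differences of the 5 genes was not tested.

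With anti-PD-1 added, the 4 genes Olr1, Siglecf, Trem1 and Camp again passed against vehicle and Chil3 did not (4 of 5), where 21.9% of genes tested were called and 20.5% were called higher and 1.43% lower. The log2 mean of Camp, 4.65 with anti-PD-1 added and 3.09 in vehicle, lay below the background limit of 4.92 in both groups. The log2 fold changes were 1.39 ± 0.45 (SE) for Olr1, 1.53 ± 0.34 for Siglecf, 1.49 ± 0.42 for Trem1, 1.55 ± 0.50 for Camp and 1.11 for Chil3, with adjusted p of 0.0352, 0.0201, 0.0256, 0.0352 and 0.274. This comparison shares its vehicle samples with the one of entinostat alone. It rested on single samples: the count fell to 0 without vehicle sample 1 or 4 or without sample 1, 2 or 4 of entinostat plus anti-PD-1, and to 1 without vehicle sample V1 or V2. Within cartridge 1 the log2 fold changes of Olr1, Siglecf, Trem1 and Camp were 1.298, 1.352, 1.311 and 1.456, and 0 of 5 were called there (lowest adjusted p 0.0707), while at an unadjusted p under 0.05 the count was 4. With cartridge as a block, also 0 of 5 were called and 4 of 5 had an unadjusted p under 0.05. Counted with edgeR, 1 of 5 was called with lane factors and 3 of 5 with TMM factors. Between entinostat plus anti-PD-1 and entinostat alone, 0 of 5 were called (0% of genes tested), 0 of 5 had an unadjusted p under 0.05, and both edgeR settings called 0. The 95% intervals of that difference ran from -1.46 to 0.60 for Olr1, -0.69 to 0.86 for Siglecf and -1.28 to 0.65 for Trem1, so a fall of 1 log2 unit lies inside the intervals of Olr1 and Trem1, and a rise of 1 lies outside all 3.

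Adding anti-CTLA-4 to entinostat went with lower levels of the 5 genes than entinostat alone. The 3 receptor genes were lower, and with Camp and Chil3 5 of 5 were called, where 48.3% of the genes tested were called and 42.6% were called lower and 5.71% higher. The log2 fold changes were -2.24 ± 0.49 (SE) for Olr1, -1.82 ± 0.37 for Siglecf, -2.16 ± 0.46 for Trem1, -2.23 ± 0.55 for Camp and -1.97 ± 0.78 for Chil3, with adjusted p of 0.0029, 0.0026, 0.0026, 0.0043 and 0.0460. Camp was tested only through the entinostat group, where it is high, so its call adds no support. The Chil3 call passed in 5 of 22 alternative settings, and all 5 genes were called in 2 of the 8 fits that each left out 1 sample of these groups. Olr1, Siglecf and Trem1 did not overlap between these groups, and Camp and Chil3 did, with the share over all genes not counted. Sample a held more Chil3 than any entinostat sample and lay inside the entinostat range for Camp and below it for the other genes. With the mean negative control subtracted Camp stood at -1.87 and was not called (adjusted p of 0.0775), and with quantile normalization at -0.67 (adjusted p of 0.143). Over all tested genes the median log2 fold change was -0.67 here. A barcode was worth 1.77 to 2.32 normalized counts with entinostat alone and 0.400 to 1.48 with anti-CTLA-4 added. Recovered barcodes overlapped, at 198 to 343 against 147 to 285 for Siglecf and 284 to 519 against 168 to 349 for Trem1. Those of Olr1 ran from 64 to 94 against 31 to 86. With edgeR and TMM factors 4 of 5 were called, at log2 values down to -1.57. The part of this scaling was not tested. The 2 groups lay on different cartridges, and only vehicle and the triple combination had samples on both. On cartridge 1 the triple combination had sample a alone, which lay among vehicle samples by lane order. With cartridge as a block the log2 fold changes were -2.46, -1.69, -2.18, -2.37 and -2.75, the first 4 called, and Chil3 not (adjusted p of 0.0502). Against entinostat plus anti-PD-1, 4 of 5 were called lower (31.0% of genes tested called, 29.5% called lower and 1.43% higher), at -1.80 ± 0.49 (SE) for Olr1, -1.90 ± 0.37 for Siglecf, -1.85 ± 0.46 for Trem1 and -1.93 ± 0.55 for Camp, while Chil3 stood at -1.81 ± 0.78 (adjusted p of 0.0888). The log2 mean of Camp lay below the background limit in both of these groups. With cartridge as a block none of the 5 was called (lowest adjusted p 0.0501) and 5 of 5 had an unadjusted p under 0.05. Without sample 1 or b of entinostat plus anti-CTLA-4 2 of 5 were called, and with edgeR and lane factors 2 were called.

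Against vehicle, entinostat plus anti-CTLA-4 gave 0 of 5 called by limma (0% of genes tested), 0 of 5 at an unadjusted p under 0.05, and 0 of 5 by edgeR with either set of factors. The log2 fold changes were -0.41 for Olr1, -0.37 for Siglecf, -0.36 for Trem1, -0.38 for Camp and -0.70 for Chil3, with 95% intervals of -1.35 to 0.53, -1.08 to 0.34, -1.24 to 0.52, -1.43 to 0.67 and -2.20 to 0.80. A rise as large as that with entinostat alone lies outside all 5 intervals, and a fall of up to 1.08 log2 units lies inside all 5. Within cartridge 2 the values were -0.32, -0.20, -0.19, -0.28 and -0.58, and none was called. They rested on 1 library: without sample a of entinostat plus anti-CTLA-4 they were -1.06 for Olr1, -0.74 for Siglecf, -0.89 for Trem1, -1.07 for Camp and -1.62 for Chil3, still with none called (lowest adjusted p 0.140).

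The triple combination gave 0 of 5 called against vehicle by limma (0% of genes tested), 2 of 5 (Siglecf and Camp) at an unadjusted p under 0.05, and 0 of 5 by edgeR in both settings. The log2 fold changes were 0.93 ± 0.45 (SE) for Olr1, 0.74 ± 0.34 for Siglecf, 0.82 ± 0.42 for Trem1, 1.23 ± 0.50 for Camp and 1.46 ± 0.72 for Chil3, all with adjusted p of 0.320 to 0.338. Within cartridge 2 they were 1.28, 1.00, 1.19, 1.53 and 2.30, and none was called. Against entinostat alone, entinostat plus anti-PD-1 and entinostat plus anti-CTLA-4 the counts called by limma were 0 of 5 each (0% of genes tested each), with 1, 1 and 5 at an unadjusted p under 0.05 and 0 by edgeR with lane or TMM factors. The interaction of the 2 antibodies under entinostat, the difference between the effects of anti-CTLA-4 with and without anti-PD-1, called 0 of 5 (0% of genes tested), 3 at an unadjusted p under 0.05 and 0 by edgeR, with log2 values of 1.03 to 2.32. These results rested on 1 library: without sample a of entinostat plus anti-CTLA-4, 5 of 5 were called higher in the triple combination than in entinostat plus anti-CTLA-4, and 5 of 5 in the interaction. The shares of all genes called in those fits are not given here, so these counts do not set the 5 genes apart. Chil3 entered these tests only through the triple combination, where it is high, so its calls add no support. Camp entered them only through entinostat alone, where it is high. That group raises the interaction value, so the Camp call in the interaction adds no support either. Leaving out vehicle sample 3 and sample a of the triple combination, 1 of 5 (Chil3, with the same limit) was called in the triple combination against entinostat plus anti-CTLA-4, and the differences from vehicle were 1.15 for Olr1, 0.90 for Siglecf, 1.14 for Trem1, 1.52 for Camp and 2.33 for Chil3, with none called. The moderated F test of any difference among the 5 groups called 4 of 5, all but Chil3 (adjusted p of 0.1003), where 33.1% of genes tested were called. Camp entered it only through the entinostat group and Chil3 only through the triple combination, so their calls add no support. Without vehicle sample 3 and sample a of the triple combination it called 5 of 5, with the share of all genes not given here. With cartridge as a block it called 0 of 5, with 5 of 5 at an unadjusted p under 0.05.

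The order of the group means on the log2 scale was the same for Olr1, Trem1 and Camp: entinostat highest, then entinostat plus anti-PD-1, the triple combination, vehicle and entinostat plus anti-CTLA-4. Siglecf had its highest mean in entinostat plus anti-PD-1 and Chil3 in the triple combination. No neighbouring pair of groups in these orders was called by limma, which does not show that neighbours are alike. For Camp the triple combination and vehicle, neighbours in its order, did not overlap (unadjusted limma p of 0.0240, adjusted p of 0.320). Camp passed the background of its own sample in 1 of 4 and 1 of 6 of these samples. Both log2 means, 4.32 and 3.09, lay below the background limit of 4.92. Triple combination sample 2 held 2 barcodes of Camp, and the share of all genes without overlap was not counted. For Siglecf the same pair had an unadjusted limma p of 0.0415.

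The levels of the 3 receptor genes were also set against other neutrophil genes, and their group means moved by less there than on the deposited scale. Against the mean log2 level of Csf3r (the G-CSF receptor), Cxcr2 (a receptor for CXC chemokines that draw neutrophils), S100a8 and S100a9 (calprotectin subunits), the level of Trem1 was -2.002 ± 0.21 (SD, n = 6) in vehicle, -1.98 ± 0.18 (SD, n = 4) in entinostat, -2.09 ± 0.10 with anti-PD-1 added, -2.09 ± 0.13 with anti-CTLA-4 added and -2.09 ± 0.28 in the triple combination. Siglecf stood at -2.19 ± 0.27, -2.52 ± 0.17, -2.23 ± 0.03, -2.29 ± 0.31 and -2.36 ± 0.33 in the same order. Olr1 stood at -4.31 ± 0.42, -4.27 ± 0.23, -4.49 ± 0.24, -4.45 ± 0.31 and -4.30 ± 0.48. Camp, near background, stood at -6.69 ± 0.69, -6.62 ± 0.55, -6.71 ± 0.36, -6.80 ± 0.59 and -6.37 ± 0.29. Chil3 varied more, at -6.24 ± 0.47, -6.75 ± 0.61, -6.69 ± 0.60, -6.66 ± 0.79 and -5.69 ± 1.36, and on this scaling the triple combination stood 1.06 above entinostat alone (95% interval -0.03 to 2.15, not called, adjusted p of 0.283). When each sample was scaled to those 4 genes, 0 of 5 were called by limma in the comparison of entinostat with vehicle, at log2 values of 0.04 for Olr1, -0.34 for Siglecf, 0.02 for Trem1, 0.07 for Camp and -0.51 for Chil3, and 0 of 5 at an unadjusted p under 0.05, while 67.9% of genes tested were called. The 95% intervals were -0.49 to 0.58 for Olr1, -0.78 to 0.11 for Siglecf and -0.38 to 0.42 for Trem1, so changes of more than 0.78 log2 units relative to the neutrophil genes lay outside these intervals. Entinostat plus anti-CTLA-4 against entinostat also gave 0 of 5 on this scaling, where 63.1% of genes tested were called, as did entinostat plus anti-CTLA-4 against entinostat plus anti-PD-1 (62.9%) and the F test (65.5%), each with 0 of 5 at an unadjusted p under 0.05. So 0 of 5 were also called for entinostat plus anti-PD-1 against vehicle (67.9%), at log2 values of -0.46 to -0.02, and 0 at an unadjusted p under 0.05.

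**Figure D3:**
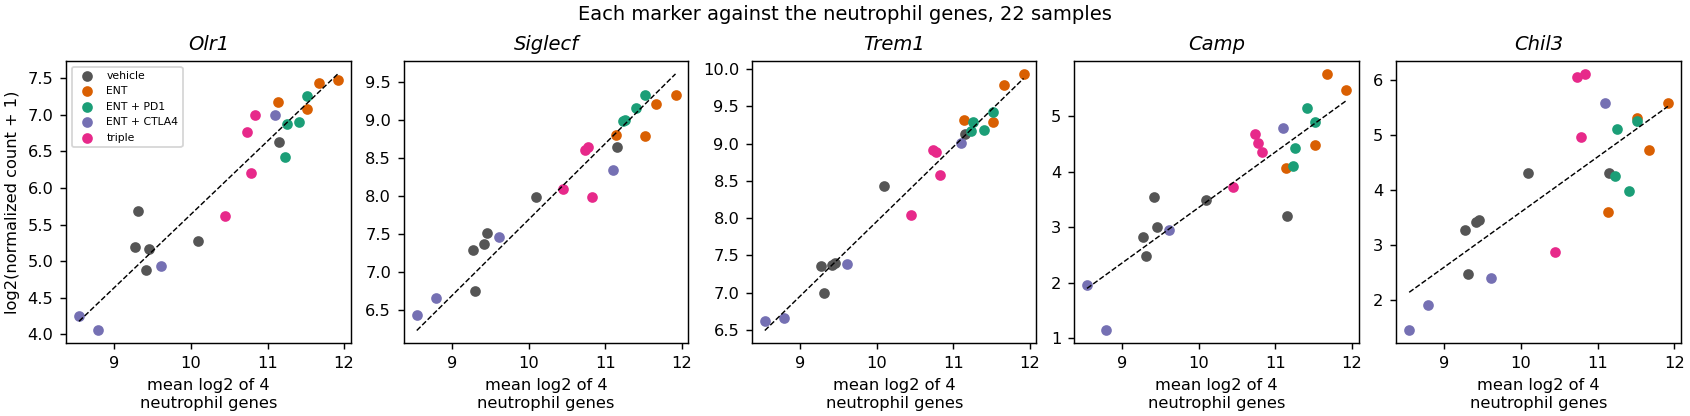
log2(normalized count + 1) of each gene against the mean log2 level of Csf3r, Cxcr2, S100a8 and S100a9 in 22 samples, coloured by group. The dashed line has slope 1 at the gene's mean offset. Trem1 and Siglecf lie close to it in all groups, and Camp and Chil3 scatter more.

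**Figure D4:**
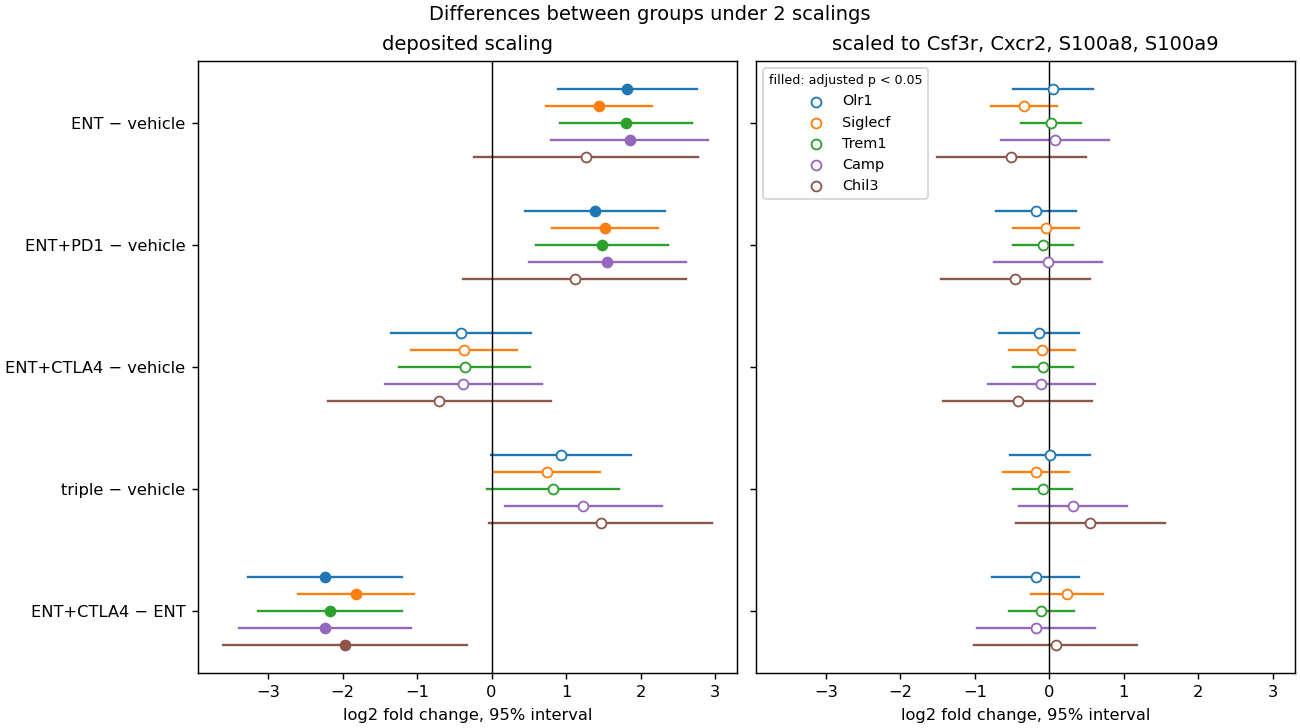
log2 fold changes of the 5 genes with 95% intervals in 5 comparisons (ENT, entinostat), on the deposited scaling (left) and after scaling each sample to 4 neutrophil genes (right). Filled points have a Benjamini-Hochberg adjusted p under 0.05. In the left panel 13 points are filled, 4 in each of the first pair of comparisons and 5 in the last, and in the right panel none is.

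The genes most like each of the 5 in pattern over the 22 samples, by Pearson's r of log2 values and given as a description since the samples share group and depth, were Birc3 (0.9754), Cxcr2 (0.967) and Il10ra (0.965) for Olr1. For Siglecf they were Il1b (0.982), Tlr13 (0.979) and Trem1 (0.976), and for Trem1 Tyrobp, its adaptor (0.985), Laptm5 (0.984) and Dusp2 (0.982). Camp was closest to S100a9 (0.903), Trem1 (0.900) and Cytip (0.896), and Chil3 to Nfatc1 (0.895), Cd274 (0.893) and Ccr2 (0.892), all lower than for the 3 receptor genes. Among the 5 themselves, Siglecf and Trem1 were the closest pair.

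The lists of genes that work with these receptors are read against the whole panel, where 36.2% of tested genes rose with entinostat, 20.5% with anti-PD-1 added, and 42.6% were lower with anti-CTLA-4 added than with entinostat alone. Of the Trem1 adaptor and signalling list, 5 of 6 tested rose with entinostat, with a median log2 fold change of 0.97 against 0.50 over all genes tested, 3 rose with anti-PD-1 added, and 5 were lower with anti-CTLA-4 added than with entinostat alone. Tyrobp rose by 1.55 (adjusted p of 0.0144), the kinase Syk by 1.68 (adjusted p of 0.0091), Malt1 by 0.54 (adjusted p of 0.0119) and Vav1 by 1.40 (adjusted p of 0.0118), while Nfkb1 stood at 0.40 (adjusted p of 0.0763). Of the 10 cytokines and chemokines that Trem1 amplifies, 7 rose with entinostat, 5 with anti-PD-1 added, and 8 were lower with anti-CTLA-4 added than with entinostat alone, with a median of 1.45 after entinostat. Il1b rose by 1.67 (adjusted p of 0.0080) and Ccl4 by 1.497 (adjusted p of 0.0110), and Cxcl1 and Csf3 did not pass at 0.70 and 0.41.

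Of the neutrophil granule and maturation list, 10 of 11 tested rose with entinostat (median 1.72), 8 with anti-PD-1 added, and 11 of 11 were lower with anti-CTLA-4 added than with entinostat alone, against the panel shares of 36.2%, 20.5% and 42.6%. Mmp9, a tertiary granule protease, rose by 1.48 (adjusted p of 0.0108), while Cybb did not pass at 0.89 (adjusted p of 0.263). Mpo, Ctsg and Elane, primary granule genes made early in neutrophil development, were above the background of their own sample in 1, 0 and 14 of 22 samples and were not tested. Of relatives of Olr1, Clec7a and Clec5a rose with entinostat by 1.67 and 1.63 (adjusted p of 0.0106 and 0.0118) and Stab1 did not pass at 0.41. Of the stress and tumour neutrophil state list, 4 of 7 tested rose, where 36.2% of all tested genes did: Hif1a by 0.50, Vegfa by 0.45, Clec5a by 1.63 and Ptgs2 by 1.34, and Arg1 stood at 0.05 (adjusted p of 0.938). Of the alternative activation list often read with Chil3, 1 of 3 tested rose, Il4ra by 0.64 (adjusted p of 0.0212), a share near that of the panel. Trem2 and Siglec1, the Trem and Siglec relatives on the panel, were not tested because no group mean passed the background limit. No gene of these lists was called against vehicle by limma in entinostat plus anti-CTLA-4 or in the triple combination.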

How the data were processed

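Total RNA of selected G-MDSCs was measured in 22 samples. The values the authors deposited are a normalized signal (linear scaled barcode counts). They cover 655 endogenous and 20 housekeeping genes with 8 negative controls and 6 positive ones. How they were normalized is not given in the sources used here. The tool limma is named, with no role, in the submitters' processing notes. No value of a gene lay below 1, and values up to 200 are whole multiples, within 0.1 barcode, of a step per sample, which gave barcode counts. No column of values was left unused.

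Values were tested as log2(normalized count + 1) in limma 3.58.1 (R 4.3.3). One model held the 5 groups and all 22 samples, with 17 residual degrees of freedom and 2.14 prior ones. Tests were two-sided and adjusted by Benjamini-Hochberg over 420 genes. The other 235 had no group mean above 29.3 normalized counts, the pooled negative controls' mean plus 2 SD. edgeR 4.0.16 was run on barcode counts as an alternative, among other scalings, filters and sample sets. The limma and edgeR fits were tested on simulated data. Pairs of samples with the same number did not deviate together. The lowest chi-square per degree of freedom between the barcode counts of any pair of samples was 2.51 over 231 pairs. Such a check can find the same library counted again but not samples from the same animal. The members and lists were chosen with earlier results of these data known. The 5 genes, their 3 most alike genes, up to 4 genes of smallest p per list and 4 reference neutrophil genes are named; other genes where a count is small or a list's background needs them, chosen after their values were seen. A gene that this rule names is not reported here. Of 675 gene names, 665 matched the RefSeq table (GRCm38.p6), and all 5 members had a promoter there. Depth limits how well Camp and Chil3 can be read.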

Additional observations from a re-analysis of the deposited data

Results flagged for a closer look

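A sample stood far from the others of its group in 4 of 25 tests of a gene in a group. The limit flags about 1 in 20 only with normal values and independent tests. These were linear counts of genes that ran together, so no excess over chance is read from the 4. Olr1 was 97.56 normalized counts in vehicle sample 2, above the other 5 vehicle samples. In entinostat plus anti-CTLA-4, sample a held 127.03 for Olr1, 515.52 for Trem1 and 47.27 for Chil3, each above the other 3 samples of the group. These 3 values come from the same library.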

How the results depend on the processing

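Of 55 gene and comparison results, 17 were called. The count of the 5 genes called, by setting, was as follows. The share of all genes called is not given beside it, so these counts do not set the 5 genes apart. Scaling to 4 neutrophil genes gave 0 for entinostat against vehicle, 0 for entinostat plus anti-PD-1 against vehicle, 0 for entinostat plus anti-CTLA-4 against entinostat, 0 against entinostat plus anti-PD-1, and 0 for the F test. Entinostat plus anti-PD-1 against vehicle gave 2 with no filter, 1 with edgeR and lane factors, 0 with cartridge as a block, 0 within cartridge 1, 0 without vehicle samples V1 and V2, and 0 to 4 with 1 sample left out. Sample weights gave 5 for the triple combination against vehicle, 2 against entinostat, 5 against entinostat plus anti-CTLA-4 and 5 for the interaction. Entinostat plus anti-CTLA-4 against entinostat gave 3 with the mean negative control subtracted, 3 with quantile normalization and 3 with only the groups compared. Against entinostat plus anti-PD-1 it gave 2 with edgeR and lane factors, 0 with only the groups compared, 0 with cartridge as a block, and 2 to 5 with 1 sample left out. The F test gave 0 with cartridge as a block. The triple combination against entinostat plus anti-CTLA-4 gave 1 when vehicle sample 3 and sample a of the triple combination were left out and 0 to 5 with 1 sample left out, and the interaction gave 0 to 5. With the replicate number as a block (16 samples), each of these gave 3; same-numbered samples correlated from -0.54 to 0.53 (median -0.07), so the numbers were not taken as pairs.

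Signs turned under scaling to 4 neutrophil genes as follows. Against vehicle, entinostat gave -0.34 for Siglecf and -0.51 for Chil3, and entinostat plus anti-PD-1 gave -0.18 for Olr1, -0.045 for Siglecf, -0.088 for Trem1, -0.018 for Camp and -0.46 for Chil3. The triple combination gave -0.17 for Siglecf and -0.091 for Trem1. Entinostat plus anti-CTLA-4 against entinostat gave 0.24 for Siglecf and 0.085 for Chil3, and against entinostat plus anti-PD-1 0.042 for Olr1, 0.00067 for Trem1 and 0.031 for Chil3. The triple combination gave 0.16 for Siglecf and 0.24 for Camp against entinostat, 0.19 for Olr1 and 0.33 for Camp against entinostat plus anti-PD-1, and -0.077 for Siglecf and -0.0044 for Trem1 against entinostat plus anti-CTLA-4. The interaction gave -0.37 for Siglecf, and Chil3 between entinostat plus anti-PD-1 and entinostat 0.053. None of these turned values was called. Other turned signs, none of them in a called result, were small. Camp with anti-CTLA-4 against vehicle gave 0.27 with the negative control subtracted, 0.0027 with edgeR and lane factors, and -1.07 to 0.14 with 1 sample left out. Chil3 there gave 0.013 with edgeR. Entinostat plus anti-PD-1 against entinostat gave -0.0040 for Siglecf with sample weights, 0.023 for Camp with the negative control subtracted, and for Chil3 0.25 with that subtraction, 0.078 with median centring, 0.19 with quantile normalization and -0.55 to 0.10 with 1 sample left out. Chil3 in the triple combination gave -0.14 with sample weights, -0.39 with cartridge as a block and -0.20 to 0.91 with 1 sample left out against entinostat, and -0.24 with that block and -0.0199 to 1.06 against entinostat plus anti-PD-1. The cause of these changes was not tested. Low barcode counts limit Camp and Chil3.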
